A study of Mus musculus with 6 samples.

Results

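Oncostatin M (Osm) and leukaemia inhibitory factor (Lif), their receptor chains, and the Jak-Stat3 genes that act behind them were examined in bulge SCs, the stem cells of the hair follicle. The set holds 10 genes of the 43274 in the tables, namely Osm, Osmr, Lif, Lifr, Stat3, Socs1, Socs3, Jak1, Jak2 and Cish, and each symbol matched 1 row. The 10 genes were selected by name for their place in the pathway, with results of this same comparison known, so that their values between genotypes are given as a description. RNA was sequenced from 6 libraries of CD34+/α6 integrin-high cells, which were sorted by FACS from the epidermis of 21-day-old mice. The 3 control libraries are labelled ILK +/- and came from mice in which K5-Cre met a single floxed copy of Ilk (ILK fl/+). The 3 ILK-K5 libraries are labelled ILK -/- and came from ILK fl/fl mice that carried K5-Cre too. K5-Cre acts in keratin 5-expressing epithelial cells, from early skin development on, so that cells of other lineages in the skin keep Ilk. The labels do not say how many mice gave each library, and p-values therefore measure the spread between these samples, which may be partly technical.

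Osm and Lif are cytokines of the interleukin-6 family, which signal through a receptor that contains the shared chain gp130. Osm binds gp130 paired with Osmr, and Lif binds gp130 paired with Lifr. The receptor chains carry Jak kinases, which phosphorylate Stat3, and phosphorylated Stat3 enters the nucleus and switches on genes that include Socs3, a feedback inhibitor of the same receptors. In the hair follicle, Osm made by macrophages of the niche is known as a signal that keeps stem cells quiescent.

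Reads on genes numbered between 8228019 and 11969072 per library, and 1 read was worth between 0.726 and 1.52 normalized counts, the unit of most values below. The floxed gene itself did not separate the genotypes, with Ilk at 10.6 to 38.5 normalized counts in controls and at 14.8 to 30.9 in ILK-K5. Counts per gene do not show which exons were read, so the genotypes are those of the labels. All 7 markers of bulge SCs were detected in every library, and Krt15 and Lgr5 made up 83.5% of their sum in ILK-K5. The sum was 43112 to 106985 in controls and 20262 to 46802 in ILK-K5, whereas the median log2 difference of the 7 markers was -0.10. Among them Cd34, the surface protein used in the sort, was lower in ILK-K5, at a log2 difference of -1.90 (standard error, SE, 0.37; limma, adjusted p = 0.0239), and the other 6 did not pass the test. The 15 macrophage markers summed to 111 to 182 normalized counts in controls and to 14824 to 22316 in ILK-K5, and all 14 of them that were tested were higher in ILK-K5.

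Osm, which encodes the secreted ligand, stood apart from the other 9 genes. The gene lies on the plus strand of chr11:4236420-4241026 in GRCm38. Control libraries 1 to 3 held 0, 0 and 0.73 normalized counts of Osm. The 3 ILK-K5 libraries, in the same order, held 52.4, 176.6 and 108.1. In reads, these were 0, 0 and 1 in controls and 46, 229 and 111 in ILK-K5. No control library rose above 3 reads, taken here as the floor, whereas every ILK-K5 library did. Against that floor of 3 reads per library, the mean level of Osm in ILK-K5 was higher at least 35.0-fold. A gene was called where limma's test over all 16368 genes gave an adjusted p of at most 0.05, and Osm passed it, with a higher level in ILK-K5. It also passed in all 6 fits that left out a library and in all 9 other fits. In RNA from many cells, fewer cells of a type and less RNA per cell cannot be told apart, and this holds for Osm and for each gene below.

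**Figure D1:**
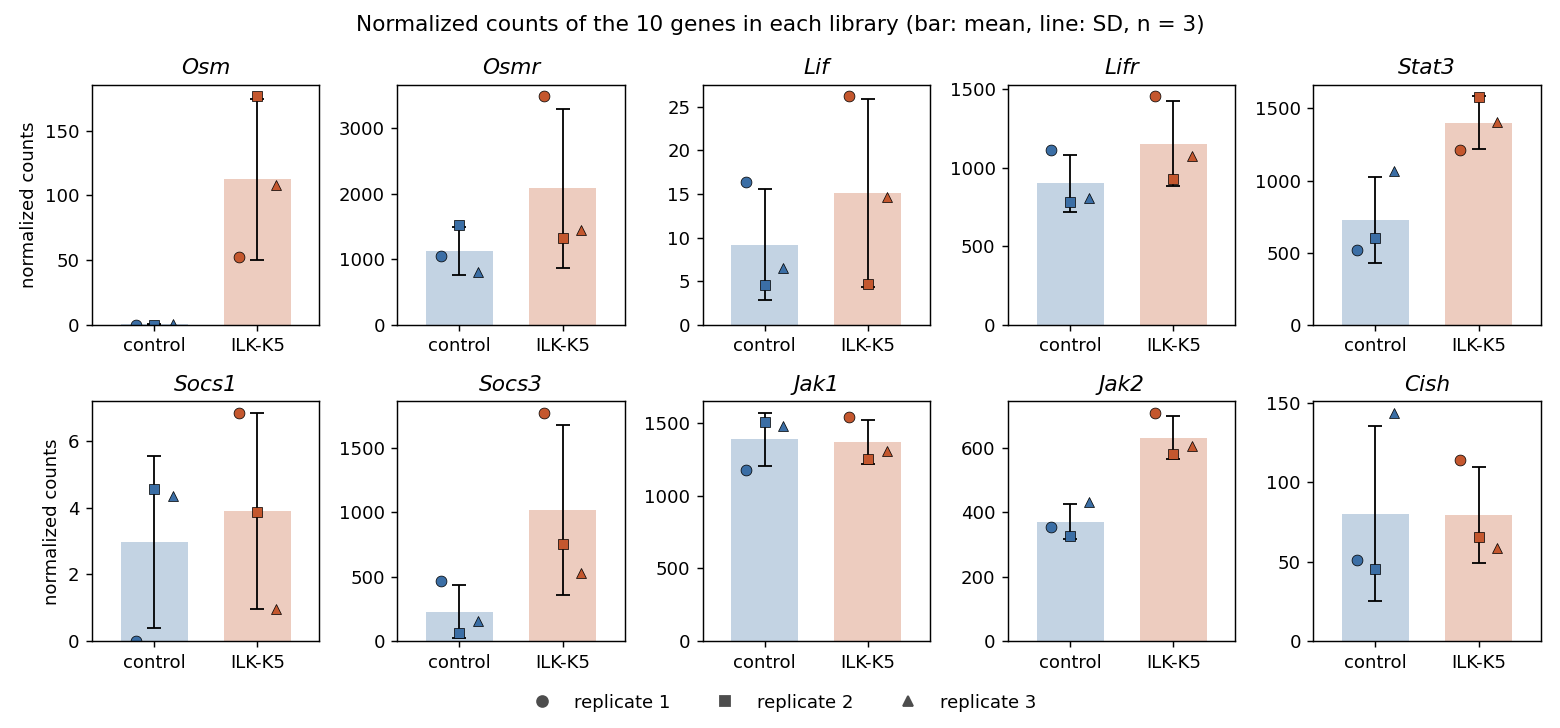
Normalized counts (linear axis from 0, its own scale for each gene) of the 10 genes in the 3 control and 3 ILK-K5 libraries. Bars are means, black lines SDs (n = 3), and the symbol shape gives the replicate number. Osm is near 0 in all controls, the libraries of Stat3, Socs3 and Jak2 do not overlap between genotypes, and ILK-K5 replicate 1 stands high for Osmr and Socs3.

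Between genotypes, markers of myeloid cells were higher together with Osm. Among ILK-K5 libraries Osm was lowest in library 1 and highest in library 2, and the summed macrophage markers, at 14824, 22316 and 16181, were in the same order. Ctss and Lyz2 made up 47.1% of that sum, and only 6 of the 15 markers were in the order of Osm, whereas 5, namely Csf1r, Adgre1, C1qa, Mrc1 and Cd163, were highest in library 1, where Osm was lowest. In controls these markers summed to 111, 182 and 175. Of the 15, Fcgr1, an Fc receptor, was at 0 in all controls, and Cd163, a scavenger receptor, fell below the filter and was not tested. The 5 markers of Langerhans and dendritic cells summed to 52.1 to 541 in controls and to 12950, 18814 and 11395 in ILK-K5, lowest in library 3. Cd74 and H2-Aa made up 92.2% of that ILK-K5 sum. These and Itgax were the 3 called higher, whereas Cd207 and Flt3 were not called (limma, adjusted p = 0.148 and 0.750). Neutrophil markers were at 14.5 to 29.9 and 170 to 248. Of these 7, S100a8 and S100a9, which keratinocytes also make, were called higher, whereas the granulocyte surface marker Ly6g was at 0 in all ILK-K5 libraries. T cell markers summed to 120 to 150 in controls and 204 to 265 in ILK-K5. Only Cd2 of them was called higher (limma, adjusted p = 0.00968), whereas Cd3e and Cd3g were not called and Cd3d leaned lower (log2 difference -0.47). Mast cell markers summed to 0 to 3.04 and 20.1 to 23.4. Kit and Fcer1a made up 100% of that ILK-K5 sum, with Kit at 21.6, 20.1 and 22.4 and not called (limma, adjusted p = 0.0578). Mcpt4, Cpa3, Tpsb2 and Cma1 were at 0 in all ILK-K5 libraries. Fibroblast markers were at 703 to 779 and 1532 to 2493, respectively. Of these, only Col3a1 was called higher (limma, adjusted p = 0.00447), and Pdgfra and Lum were not tested. Endothelial markers were at 60.2 to 178 and 81.8 to 93.4, and melanocyte markers at 679 to 1308 and 268 to 477, respectively. The lower melanocyte sum followed Mitf, at 1136, 868 and 596 in controls and 258, 192 and 254 in ILK-K5. Among melanocyte markers only Mitf passed the test (limma, adjusted p = 0.0118). Tyrp1, Dct and Pmel leaned higher in ILK-K5 (log2 differences of 3.29, 0.60 and 0.20) and Tyr lower (-0.29). The part of any of these cell types in the level of Osm, or of each gene below, was not tested.

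**Figure D2:**
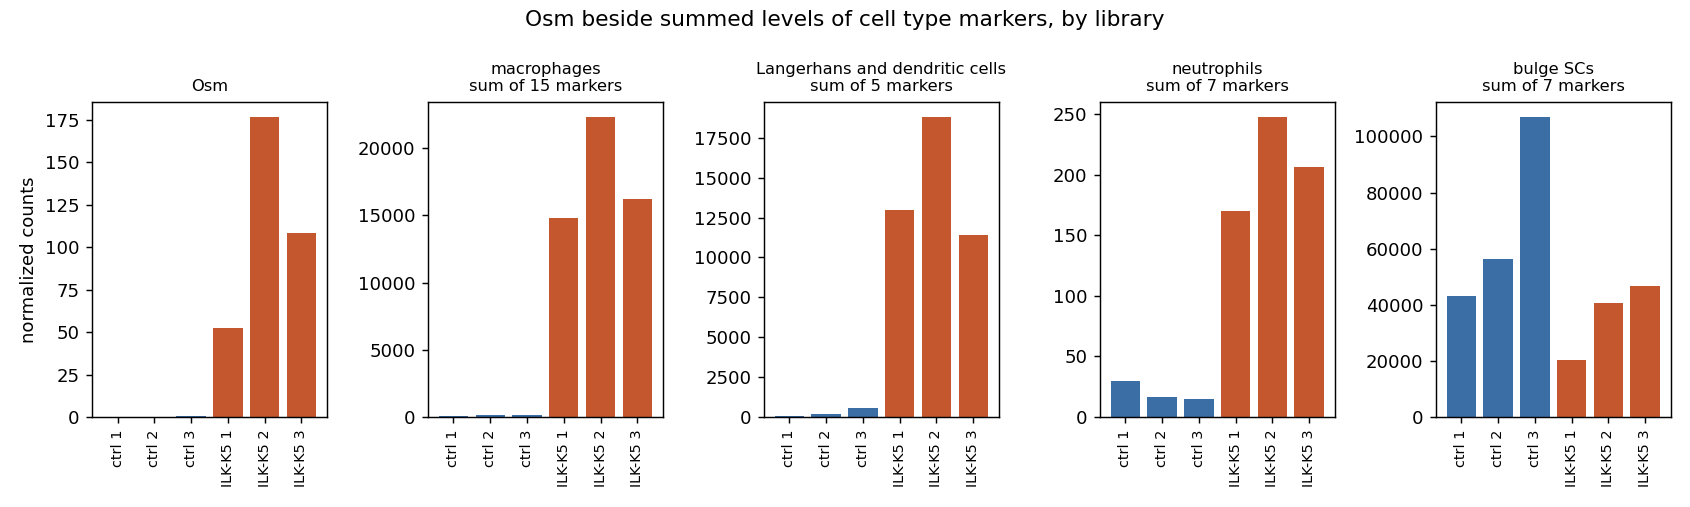
Osm and the summed markers of 4 cell types in each library (normalized counts, linear axes from 0; ctrl, control). Osm and the sums of macrophage, Langerhans and dendritic cell and neutrophil markers are low in the 3 controls and high in the 3 ILK-K5 libraries. Cd74 and H2-Aa make up 92.2% of the Langerhans and dendritic cell sum in ILK-K5. S100a8 and S100a9 make up 80.7% of the neutrophil sum there, and Krt15 and Lgr5 83.5% of the bulge SC sum. Osm and the macrophage sum are both lowest in ILK-K5 library 1 and highest in library 2, an order that 6 of the 15 single macrophage markers follow.

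The tested genes whose pattern over the 6 libraries was most like that of Osm were Stfa2, Lyz1, Aif1, 2610528A11Rik and Gm15922. Likeness was measured as the root-mean-square difference of log2(normalized count + 1) after each gene's mean was subtracted, and it ran from 0.269 for Stfa2 to 0.439 for Gm15922. Stfa2 was at 0 in all controls and at 38.7, 145.0 and 87.7 normalized counts in ILK-K5 libraries 1 to 3. Aif1, which is also in the macrophage list, was at 104, 245 and 147 there. These genes share the genotype difference of Osm, and the likeness is given as a description.

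Lif, the second ligand, starts 16530 bases beyond the end of Osm, on the plus strand of chr11:4257557-4272514. It was near the limit of detection, with 16.4, 4.56 and 6.53 normalized counts in control libraries and 26.2, 4.63 and 14.6 in ILK-K5. The genotypes overlapped, and the log2 fold change was 0.57 with a standard error of 0.84. Leaving out a library moved it from 0.06, without ILK-K5 library 1, to 1.19, without ILK-K5 library 2, and it was 1.05 without control library 1. The 2 neighbouring cytokine genes thus differed in these libraries, Osm being called and Lif not. Whether their changes differed from each other was not tested.

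The receptor chains were present in every library. Osmr, which pairs with gp130 to bind Osm, lies on the minus strand of chr15:6813577-6874969. Its levels were 1042, 1522 and 805 normalized counts in control libraries and 3486, 1319 and 1444 in ILK-K5. ILK-K5 library 1 was higher than the other 5, and the remaining libraries of both genotypes overlapped. The log2 fold change was 0.79 (SE 0.41) over 6 libraries and 0.35 without ILK-K5 library 1.

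Lifr, the chain that binds Lif and with lower affinity can take part in binding Osm, lies 215644 bases from Osmr on the plus strand of chr15:7090614-7197489. It was at 1111, 783 and 808 normalized counts in control libraries and at 1454, 927 and 1076 in ILK-K5. The genotypes overlapped, with a log2 fold change of 0.35 ± 0.28 (SE). In both genotypes replicate 1 was the highest. Neither receptor chain was called in any of the 15 other fits.

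The genes whose pattern was most like that of Osmr were Sall2, Rin2, H2-Q6, Ccdc8 and 4732487G21Rik, with root-mean-square differences from 0.0651 for Sall2 to 0.193 for 4732487G21Rik. All 5 were highest in ILK-K5 library 1, as Osmr was. Sall2 was at 69.5, 114 and 53.7 normalized counts in control libraries and at 256, 96.4 and 98.4 in ILK-K5.

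Jak1 and Jak2, the tyrosine kinases bound to gp130 and its partners, differed in pattern. Jak1, on the minus strand of chr4:101152367-101265282, was at 1177, 1507 and 1477 normalized counts in control libraries and at 1542, 1253 and 1309 in ILK-K5. These ranges overlapped throughout, and the log2 fold change was -0.02 (SE 0.25), or 0.01 with TMM scaling. Jak2, on the plus strand of chr19:29251828-29313080, was at 356, 325 and 432 in controls and at 709, 583 and 606 in ILK-K5. Every ILK-K5 library was above every control library. The log2 fold change of Jak2 was 0.77 (SE 0.26), and it ranged from 0.68 to 0.89 when a library was left out. Jak2 did not pass the threshold in any of these fits.

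Stat3, the transcription factor that the kinases phosphorylate, lies on the minus strand of chr11:100885098-100939540. Its levels were 518, 599 and 1068 normalized counts in control libraries and 1214, 1581 and 1407 in ILK-K5. The genotypes did not overlap, and control library 3 lay closest to the ILK-K5 libraries. The log2 fold change of Stat3 was 1.01 (SE 0.32). Stat3 was not called over all 6 libraries with genotype as the sole term. It was called without control library 3, where the log2 fold change was 1.32. Stat3 was also called with a term that sets replicate 1 of both genotypes apart, and with a block for the replicate number. These values are RNA levels, and phosphorylation of Stat3 was not measured in these libraries.

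Among the 3 inhibitors in the set, Socs3 had the largest difference between genotypes. It did not pass the threshold in limma over all 6 libraries with genotype as the sole term. Socs3, which blocks gp130 and its bound kinases and is itself induced by Stat3, lies on the minus strand of chr11:117966079-117970047. It was at 464, 66.9 and 160 normalized counts in control libraries and at 1770, 757 and 533 in ILK-K5. The lowest ILK-K5 library was above the highest control library, and in both genotypes replicate 1 held the highest level. The log2 fold change was 2.38 (SE 0.67), and its size was between 1.71 without control library 2 and 3.10 without control library 1. Socs3 was called without control library 1, and in DESeq2 on the recovered reads. A term that sets replicate 1 of both genotypes apart gave a call too, as did a block for the replicate number. Socs3 was also called with replicates 2 and 3 of each genotype alone, where the log2 fold change was 2.60. The labels number replicate 1 of both genotypes unlike replicates 2 and 3 and do not say why.

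Junb, an AP-1 gene listed among genes induced through Stat3, also had its highest level in replicate 1 of both genotypes. It was at 1980, 105 and 355 normalized counts in control libraries and at 1440, 641 and 460 in ILK-K5. Unlike the libraries of Socs3, those of Junb overlapped between genotypes, with a log2 fold change of 0.84 ± 0.90 (SE; limma, adjusted p = 0.840). The genes most like Socs3 in pattern were Stab1, Cbfa2t3, Adnp, Rassf10 and Trf, at root-mean-square differences of 0.332 to 0.416. Stab1, the closest, was at 20.3, 3.04 and 7.98 normalized counts in control libraries and at 62.6, 48.6 and 37.0 in ILK-K5. Rassf10 was at 64.6, 13.7 and 34.8 normalized counts in control libraries and at 188, 84.8 and 84.7 in ILK-K5.

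Socs1, an inhibitor that binds the kinases directly, was hardly detected. The gene lies on the minus strand of chr16:10782240-10785536. It had 0, 3 and 6 reads in control libraries and 6, 5 and 1 in ILK-K5, and at this depth no difference was detectable. It fell below the filter of a mean of 10 normalized counts and was not tested.

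Cish, which acts mainly on receptors that use Stat5, lies on the plus strand of chr9:107296026-107302784. It was at 51.1, 45.6 and 144 normalized counts in control libraries and at 114, 65.6 and 58.4 in ILK-K5. The genotypes overlapped, with a log2 fold change of 0.12 ± 0.52 (SE), which turned to -0.18 without control library 2. Of its exon bases, 11.5% are shared with the annotated genes Gm17041 and Gm17040, and the part of its count that belongs to them was not tested.

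Across the set, 9 of the 10 genes were tested and 1 of these, Osm, was called higher in ILK-K5. Over all 16368 genes tested, 479 were called higher (2.93%) and 98 lower (0.599%). ILK-K5 libraries lay wholly above control libraries for 4 members, namely Osm, Stat3, Socs3 and Jak2, and for 10.9% of all genes tested. They lay wholly below for no member, against 6.95% of all genes. Of the 9 fold changes, 8 were above 0, and their median was 0.77 on the log2 scale, whether Osm was entered at its fitted value or at its bound. The median over all genes tested was 0.01. The members were chosen with these values known, and nothing is read from the counts.

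**Figure D3:**
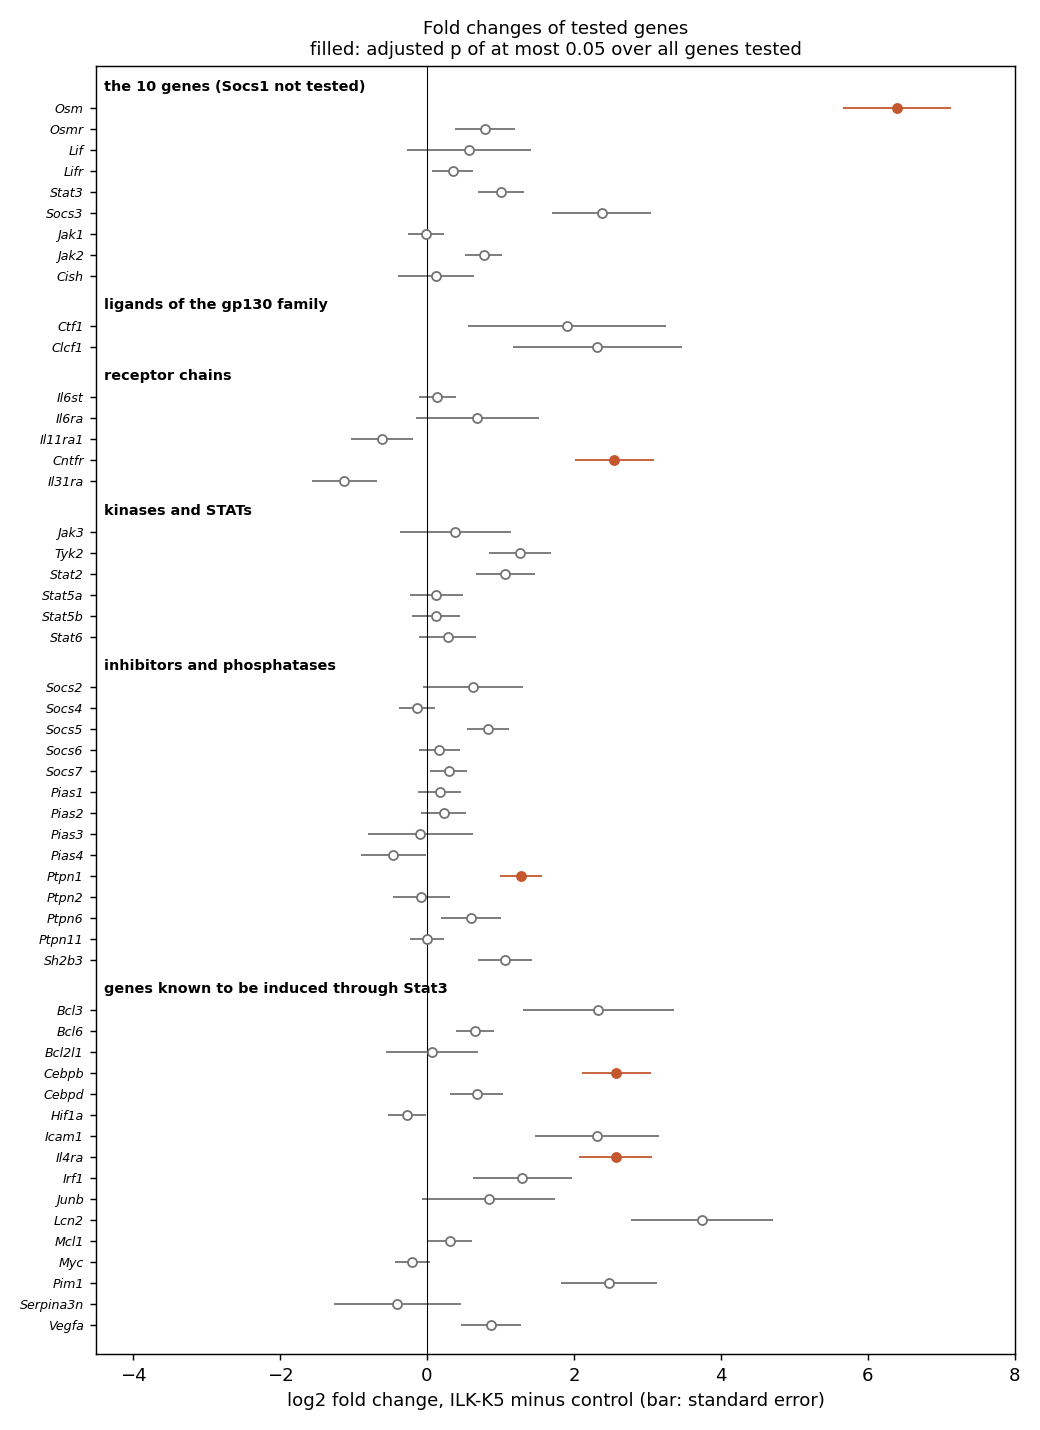
Log2 fold changes (ILK-K5 minus control, on log2 of the normalized count + 1) with standard errors of the 9 tested genes of the set and of other tested genes of the same pathway, by role. Filled points mark an adjusted p of at most 0.05 over all genes tested, which Osm, Cntfr, Ptpn1, Cebpb and Il4ra reached. The fitted value of Osm depends on the pseudocount, because its controls were at the floor.

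Per transcript length, Jak1 led the 10 genes in controls and Socs3 in ILK-K5. FPKM was used for all comparisons of level between genes. It scales fragments by gene length and, in the deposited values, by the same library factors as the normalized counts. In controls Jak1 had the highest level, at 19.7 ± 2.59 FPKM (SD, n = 3), above the range of the gene next in order. Osmr, Lifr, Socs3, Stat3 and Jak2 followed at means of 9.51, 8.94, 8.17, 7.84 and 7.57 FPKM, and each overlapped in range with its neighbour. Cish lay below them at 1.28 ± 0.88 FPKM. Socs1 and Lif followed at 0.250 and 0.216 FPKM with overlapping ranges, and Osm was last at 0.0109 FPKM.

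In ILK-K5 the highest mean level was that of Socs3, at 36.2 ± 23.4 FPKM (SD, n = 3), which overlapped in range with Jak1 at 19.4 ± 2.17. Osmr, Stat3, Jak2 and Lifr came next, at means of 17.6, 15.1, 12.9 and 11.4 FPKM, and neighbours overlapped. Osm was seventh, at 5.07 ± 2.81 FPKM, below the range of Lifr and above that of Cish at 1.27 ± 0.48. Lif and Socs1 were lowest, at 0.357 and 0.327 FPKM, with ranges that overlapped. Per length, the message of the ligand Osm was below that of its receptor chain Osmr in each ILK-K5 library, by an uneven margin. Libraries 1 to 3 held 2.36, 7.97 and 4.88 FPKM of Osm and 29.5, 11.2 and 12.2 FPKM of Osmr.

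**Figure D4:**
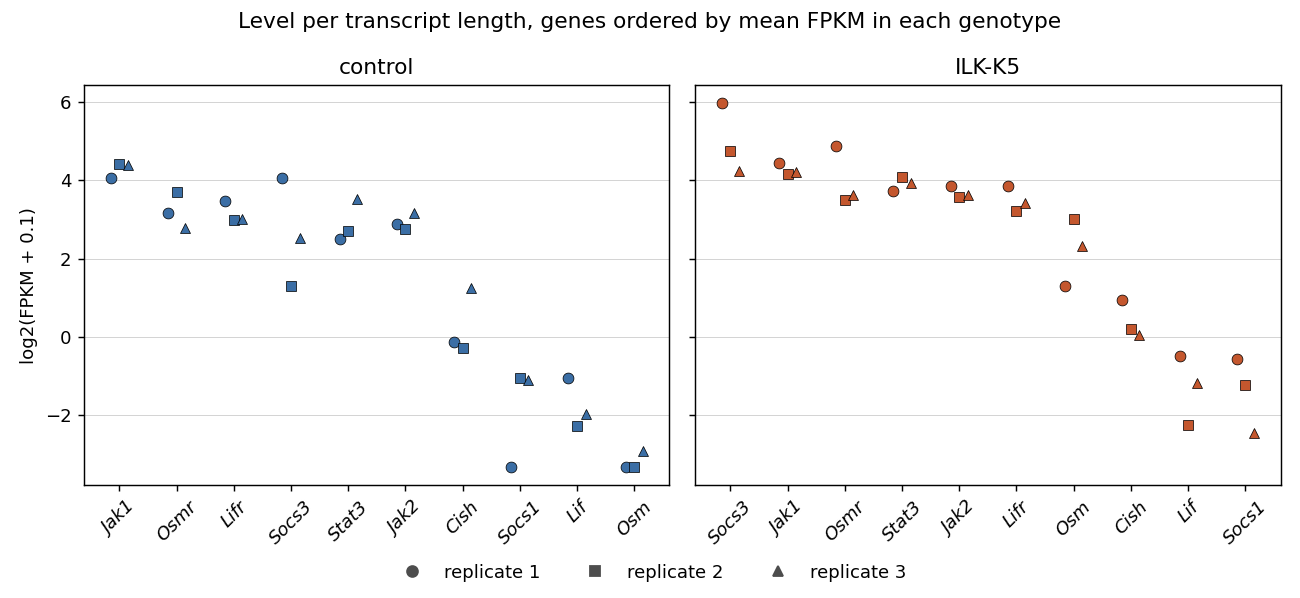
Levels of the 10 genes as log2(FPKM + 0.1) in each library, with genes ordered by their mean FPKM in controls and in ILK-K5. Symbol shapes give the replicate. Jak1 leads in controls and Socs3 in ILK-K5, and Osm is last in controls and seventh in ILK-K5.

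The DNA before annotated RefSeq starts of the genes was searched for the letters TTCNNNGAA, a motif that Stat proteins are known to bind. It reads the same on both strands, so that each match counts once for both. RefSeq windows on GRCm38, of 250 bases before an annotated start, were found for 9 of the 10 genes, all but Osm, and Lifr had 2. Of these 10 windows, that of Socs3 alone held a match, TTCTTAGAA, with its first base 154 bases before the start. Among all 32851 windows of the table, 2306 held a match (7.02%). The RefSeq start of Socs3 lies 180 bases before the furthest start of a coding model in GENCODE, and bases between the 2 starts are outside the window. The windows of Osmr, Lifr, Socs3 and Cish lie wholly within the gene spans given above. The match in Socs3 is thus before the RefSeq start but inside the span of the gene. Stretches of the windows of Socs3, Stat3 and Jak2 are shown, since their libraries did not overlap between genotypes, 5′ to 3′ on the strand of the gene with the match in capitals. They run over chr11:117969452-117969616 for Socs3, leaving out bases in an annotated exon, over chr11:100939541-100939790 for Stat3 and over chr19:29251553-29251802 for Jak2.
Socs3: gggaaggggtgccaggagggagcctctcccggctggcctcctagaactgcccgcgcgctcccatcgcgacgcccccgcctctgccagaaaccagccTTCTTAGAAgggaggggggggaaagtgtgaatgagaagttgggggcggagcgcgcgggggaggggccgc
Stat3: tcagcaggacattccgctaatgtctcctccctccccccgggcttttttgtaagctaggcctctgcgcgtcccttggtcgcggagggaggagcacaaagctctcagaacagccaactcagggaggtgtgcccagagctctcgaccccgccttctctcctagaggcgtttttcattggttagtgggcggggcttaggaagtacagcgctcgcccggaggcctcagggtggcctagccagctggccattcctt
Jak2: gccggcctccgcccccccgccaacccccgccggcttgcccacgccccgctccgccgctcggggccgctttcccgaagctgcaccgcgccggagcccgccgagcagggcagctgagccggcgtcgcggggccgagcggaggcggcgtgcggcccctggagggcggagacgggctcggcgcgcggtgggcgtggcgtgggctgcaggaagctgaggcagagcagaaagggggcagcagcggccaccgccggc
A match in letters does not show that a protein was bound there, and no match says only that these letters are not in the window.

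Other genes of the same pathway were taken by role, not by how they moved, though with earlier results of these data known. They gave 55 genes, of which 45 were tested, and their shares are given as a description. Of these, 4 rose in ILK-K5 and 0 fell in the limma fit, beside 2.93% and 0.599% of all genes. At an unadjusted p under 0.05, 13 were higher and 1 was lower, beside 8.18% and 4.11% of all genes tested (12.3% in either direction), and edgeR and DESeq2 on the recovered reads called 4 and 6 higher and 0 lower each. The median log2 fold change of the 45 was 0.60. Libraries lay wholly above controls for 14 of the 45 and wholly below for 1, beside 10.9% and 6.95% of all genes tested. The 10 genes under the filter were Il6, Il11, Cntf, Il27, Ebi3, Il31, Il27ra, Stat4, Saa3 and Timp1, and among them Il31 was at 0 in all libraries.

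Of 9 further ligands, 3 were tested and none was called by limma, and none had an unadjusted p under 0.05. Cardiotrophin 1 (Ctf1) was at 1.93, 0 and 36.3 normalized counts in controls and 4.55, 34.7 and 28.2 in ILK-K5. Clcf1, a cytokine that signals through the receptor for ciliary neurotrophic factor, was at 6.75, 0 and 32.7 in controls and 23.9, 48.6 and 25.3 in ILK-K5. Both overlapped between genotypes. The classical family members Il6 and Il11 stayed at or below 8 reads in every library.

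Of 6 further receptor chains, 5 were tested and 1 rose. Cntfr, the anchor chain of the receptor for ciliary neurotrophic factor, was at 7.72, 10.6 and 18.9 normalized counts in controls and at 101, 54.0 and 71.1 in ILK-K5. The genotypes did not overlap, and the log2 fold change was 2.55 (SE 0.54; limma, adjusted p = 0.0335). Il6st, which encodes the shared chain gp130, was at 1058, 879 and 1335 in controls and at 1227, 1145 and 1189 in ILK-K5, with a log2 fold change of 0.14 ± 0.25 (SE; limma, adjusted p = 0.916). Il11ra1 was at -0.61 (SE 0.42; limma, adjusted p = 0.709) on the same scale. Il31ra, which pairs with Osmr to form the receptor for interleukin-31, was at 632, 645 and 1170 normalized counts in controls and at 188, 410 and 595 in ILK-K5. Its libraries lay wholly below controls, with a log2 fold change of -1.12 ± 0.44 (SE) that did not pass the test (limma, adjusted p = 0.312).

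Of 8 further kinases and STATs, 7 were tested, and limma called none, while 2 had an unadjusted p under 0.05. All 7 fold changes were above 0. Stat2, which acts behind interferon receptors, had a log2 fold change of 1.07 (SE 0.41, adjusted p = 0.284), and Stat6, which acts behind the interleukin-4 receptor, had 0.28 (SE 0.39, adjusted p = 0.888).

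All 14 further inhibitors and phosphatases were tested and 1 rose. Ptpn1, a phosphatase that acts on Jak2, was at 162, 161 and 204 normalized counts in controls and at 520, 426 and 350 in ILK-K5. The libraries did not overlap, and the log2 fold change was 1.28 (SE 0.29; limma, adjusted p = 0.0434). Ptpn2, a related phosphatase that acts on Stat proteins, overlapped between genotypes at 284 to 643 in controls and 358 to 674 in ILK-K5. Ptpn11 was at 775, 812 and 802 normalized counts in controls and at 814, 771 and 808 in ILK-K5, and the SUMO ligase Pias1 had a log2 fold change of 0.18 ± 0.29 (SE; limma, adjusted p = 0.909).

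Of 18 genes known to be induced through Stat3, 16 were tested, 2 rose and 14 did not pass the test, and 7 had an unadjusted p under 0.05, which 12.3% of all genes tested had. Cebpb, a transcription factor of inflammatory responses in many cell types, was at 11.6, 12.2 and 18.9 normalized counts in controls and at 99.0, 105 and 65.3 in ILK-K5. Its log2 fold change was 2.58 (SE 0.47; limma, adjusted p = 0.0178). Il4ra, a receptor chain for interleukin-4 and interleukin-13, was at 21.2, 48.7 and 82.0 in controls and at 338, 275 and 203 in ILK-K5. Its log2 fold change was 2.57 (SE 0.50; limma, adjusted p = 0.0234). The survival gene Mcl1 had a log2 fold change of 0.31 ± 0.30 (SE, adjusted p = 0.817), and Myc had -0.20 (SE 0.24, adjusted p = 0.863). Of the exon bases of Cebpb, 20.7% are shared with the annotated gene Tmem189, and of those of Il4ra, 9.51% with Gm44876, and the part of the counts that belongs to these was not tested. Both Cebpb and Il4ra are also expressed by macrophages, whose markers moved with the genotype as given above, and the part of those cells in their level was not tested.

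Which pathway genes were called depended on the libraries and, for Ptpn1, also on the settings. The call of Ptpn1 was lost with a pseudocount of 0.1 (limma, adjusted p = 0.0533) and without the filter (limma, adjusted p = 0.0615). With control library 2 or with any ILK-K5 library left out, none was called by limma. In these fits 7 to 10 of the 45 genes had a higher level at an unadjusted p under 0.05. The share of all genes at that p was not counted there, and nothing is read from these counts. Without control library 1 Cebpb and Il4ra were called, and without control library 3 all 4 were, among 6 calls. In every one of these fits each of the 4 was higher in ILK-K5, with log2 fold changes of 2.28 to 2.88 for Cntfr, 1.14 to 1.42 for Ptpn1, 2.45 to 2.79 for Cebpb and 2.06 to 3.01 for Il4ra.

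**Figure D5:**
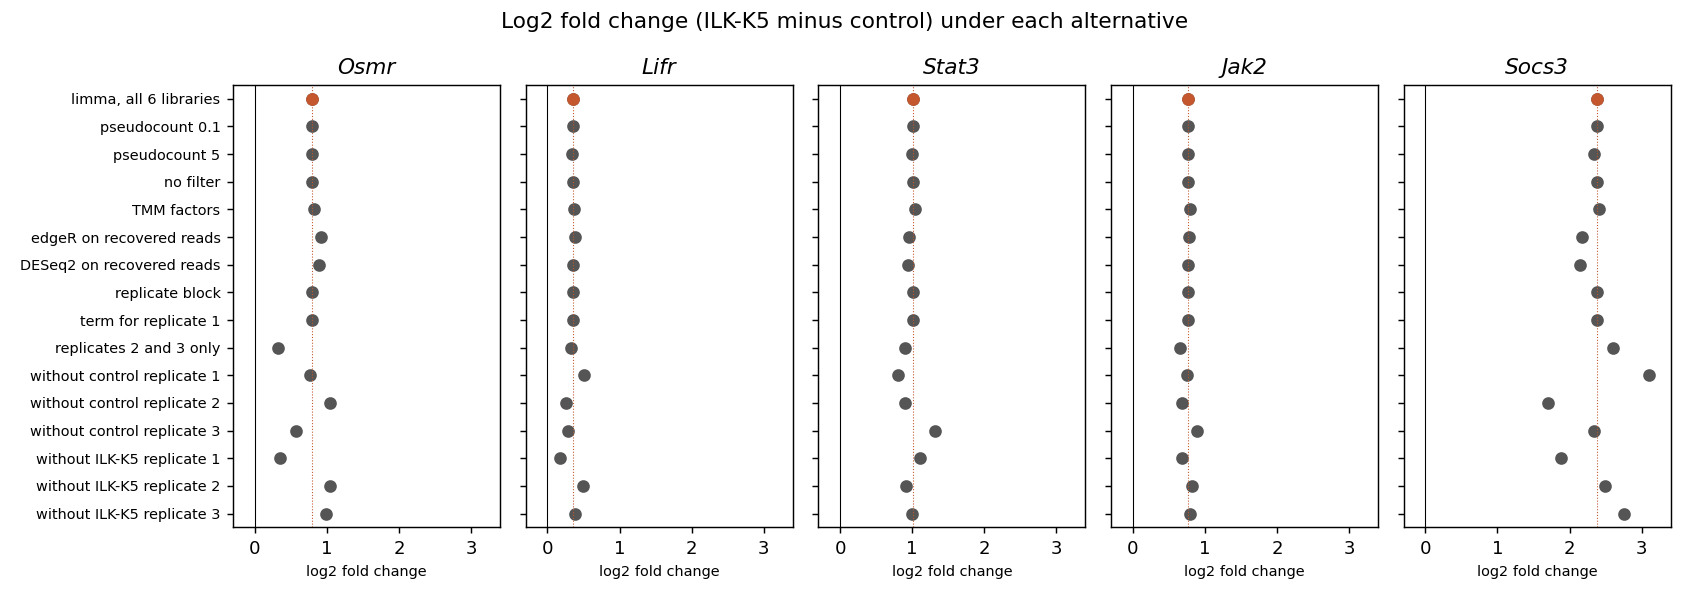
Log2 fold change (ILK-K5 minus control) of Osmr, Lifr, Stat3, Jak2 and Socs3 in the limma fit over 6 libraries (orange point and dotted line) and under each of 15 alternatives (grey points). All points lie above 0. Osmr was at 0.35 without ILK-K5 replicate 1, and Socs3 ranged from 1.71 to 3.10 when a library was left out.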

How the data were processed

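RNA was measured in 3 control and 3 ILK-K5 libraries. The authors amplified cDNA (Ovation V2, Nextera XT), sequenced read pairs, removed ribosomal reads and aligned to GRCm38; per the submitters' notes, TopHat2 2.0.14, Bowtie2 2.2.4 and DESeq2 1.6.3 were used. The read counter and its handling of strand and shared exons are not given in the sources used here. The deposited normalized signal holds counts that the authors divided by size factors: in each library 100% of values were whole multiples of 1 read (tolerance 0.001), so reads were recovered. The FPKM table was deposited by the authors on the same scale per gene. The authors' own comparison columns (fold changes, p-values) were not used.

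Of 43274 genes, 42107 had a symbol in GENCODE M21. The 16368 genes whose mean over the 6 libraries reached 10 normalized counts were tested with limma 3.58.1 (trend, R 4.3.3) on log2(normalized count + 1), a scale that understates the change of low genes, with genotype as the sole term, two-sided, and Benjamini-Hochberg adjustment over all of them. The code was tested on simulated data. Alternatives were pseudocounts of 0.1 and 5, no filter, TMM factors, edgeR 4.0.16, DESeq2 1.42.0, terms for the replicate number, replicates 2 and 3 alone, and leaving out each library. An exact permutation test of 3 against 3 cannot go below p = 0.1.

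The members and all lists were chosen with earlier results of these data known. Named were all members, the called genes of the other pathway list, up to 3 uncalled genes per role with the highest mean FPKM (2 of them are not reported here), and the 5 genes most like Osm, Osmr and Socs3. Promoter sequences are from RefSeq on GRCm38. Depth sets a floor of 3 reads per library, for counting error alone.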

Additional observations from a re-analysis of the deposited data

How the results depend on the processing

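Osm was called higher, and Osmr, Lifr, Stat3, Jak2 and Socs3 stayed above 0, in all 15 alternatives. Over all genes, 479 higher and 98 lower calls became 780 and 265 in DESeq2, 848 and 269 with the replicate block, and 846 and 286 with a term for replicate 1; leaving out a library gave 222 to 559 and 32 to 98, the higher calls being 310 when control library 2 was absent and 268, 222 and 245 when ILK-K5 library 1, 2 or 3 was. The number of the 10 genes called was 2 in DESeq2 (Osm, Socs3), 3 with the replicate block and 3 with the term (Osm, Socs3, Stat3), 2 with replicates 2 and 3 alone (Osm, Socs3), and 1 to 2 when a library was left out. Of the other pathway genes, higher calls were 4 over all libraries and 7 with the term. The 7 include Icam1, Lcn2 and Pim1, named after their values were seen. With replicates 2 and 3 alone limma called 0 higher, while 14 were higher at an unadjusted p under 0.05. The share of all genes at that p was not counted for this fit. Higher calls were 0 to 6 when a library was left out. Lower calls were 1 with the replicate block (Il31ra, limma, adjusted p = 0.0295) and 0 when a library was left out. With replicates 2 and 3 alone the log2 fold change of Ptpn11 was -0.032 and that of Cish -0.38. Cish was at -0.029 in both edgeR and DESeq2. Leaving out a library turned the sign of Il6st (-0.0023 to 0.30), Ptpn2 (-0.44 to 0.15) and Ptpn11 (-0.017 to 0.026). It also turned that of Pias1 (-0.0022 to 0.35) and Junb (-0.16 to 1.95). Among the 10 genes of the set, it turned that of Jak1 (-0.13 to 0.047) and Cish (-0.18 to 0.64). The causes were not tested. Each control library shares its label number with the ILK-K5 library of the same replicate number, and whether these are pairs is not known. Deviations of same-numbered libraries correlated at 0.529, 0.0198 and 0.307 over genes, and control library 3 correlated more with ILK-K5 library 2 (0.498). Replicate 1 of each genotype correlated with replicates 2 and 3 of the other at -0.553 to -0.060. Deviations were taken from the mean of each genotype and sum to 0, so that a positive correlation forces negative ones elsewhere. These correlations therefore cannot exclude pairs. The labels number replicate 1 unlike the others, which the term for replicate 1 follows. Depth limits Socs1, Lif and the controls of Osm, where 3 reads were worth 2.18 to 4.56 normalized counts, and the fitted log2 fold change of Osm, which ran from 4.34 (pseudocount 5) to 8.95 (pseudocount 0.1).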
